A study of Homo sapiens with 12 samples.

Results

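The 7 genes described here encode secreted proteins: the CXC chemokines *CXCL1*, *CXCL2*, *CXCL3*, *CXCL5* and *CXCL8*, the CC chemokine *CCL20* and the cytokine *CSF2*. They were chosen by gene symbol from the 26364 genes counted, and 6 of the 7 had a read in at least 1 of the 12 libraries, since *CXCL5* had none. RNA-seq of total RNA was analysed in HCT116 cells, a human colon cancer cell line, either WT or p65-deficient (clone 32, a single clone). Each cell line was left without inhibitor or pre-incubated for 2 h with CPT (camptothecin, an inhibitor of topoisomerase I, TOP1) or ICRF193 (an inhibitor of topoisomerase II, TOP2), each at 5 µM, and was then either not stimulated (0 h) or stimulated for 1 h with 20 ng/mL TNFα. Every combination was sequenced as 1 library, so no condition had a replicate, and clone 32 cannot be told apart from p65 deficiency. The study's methods name untreated and vehicle-treated cells for this experiment, without saying which of them the libraries without inhibitor were. They also differ on how clone 32 was made: its labels name an shRNA against p65, whereas the study's methods give CRISPR-Cas9 editing of the p65 gene.

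TNFα binds its receptor TNFR1 and activates the transcription factor NF-κB, whose p65 subunit (*RELA*) enters the nucleus, binds κB sites in promoters and enhancers and switches on inflammatory genes within minutes. CXCL8 (IL-8) and the closely related CXCL1, CXCL2 and CXCL3 attract neutrophils through the receptors CXCR1 and CXCR2, and CXCL5 acts on the same receptors. CCL20 attracts lymphocytes and dendritic cells that carry CCR6, and CSF2 (GM-CSF) promotes the growth and activation of granulocytes and macrophages. TOP1 and TOP2 relax the supercoils that form when RNA polymerase moves along DNA, and the question of the design was how far TNFα-induced transcription tolerates their inhibition and requires p65.

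In the hg19 annotation of the files, the CXC genes lie in one cluster on chromosome 4. *CXCL8* (chr4:74606223-74609433) and *CXCL1* (chr4:74735109-74737019) are on the plus strand, and *CXCL5* (chr4:74861359-74864446), *CXCL3* (chr4:74902312-74904490) and *CXCL2* (chr4:74962754-74964997) on the minus strand. *CCL20* (chr2:228678558-228682280) and *CSF2* (chr5:131409485-131411863) are on the plus strand of other chromosomes. All 7 are short genes with 4 exons, and their spans run from 1911 bp for *CXCL1* to 3723 bp for *CCL20*.

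The promoters are shown because all 7 hold a sequence that matches the κB motif within 150 bases upstream of the start. The bases just upstream of each start site (RefSeq, GRCh38.p14, coding strand, 5′ to 3′, ending at the base before the start) follow with the matches in capitals, which mark κB motifs in all 7, the AP-1 motif in *CXCL8* and the TATA box in *CXCL8* and *CCL20*.
CXCL8: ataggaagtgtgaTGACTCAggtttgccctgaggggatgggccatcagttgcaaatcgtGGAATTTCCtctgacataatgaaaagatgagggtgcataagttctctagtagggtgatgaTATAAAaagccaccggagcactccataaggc
CXCL1: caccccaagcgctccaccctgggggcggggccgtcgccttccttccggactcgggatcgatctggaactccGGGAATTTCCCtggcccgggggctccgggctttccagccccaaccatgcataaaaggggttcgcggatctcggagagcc
CXCL2: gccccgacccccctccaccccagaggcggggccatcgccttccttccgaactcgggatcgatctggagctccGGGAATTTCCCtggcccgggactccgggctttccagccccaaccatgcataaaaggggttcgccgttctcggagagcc
CXCL3: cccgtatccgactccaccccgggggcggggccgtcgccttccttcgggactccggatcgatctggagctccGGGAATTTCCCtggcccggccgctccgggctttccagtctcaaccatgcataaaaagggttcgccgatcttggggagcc
CXCL5: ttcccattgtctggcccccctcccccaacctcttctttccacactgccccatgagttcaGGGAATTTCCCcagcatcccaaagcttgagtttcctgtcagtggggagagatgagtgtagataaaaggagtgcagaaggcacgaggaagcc
CCL20: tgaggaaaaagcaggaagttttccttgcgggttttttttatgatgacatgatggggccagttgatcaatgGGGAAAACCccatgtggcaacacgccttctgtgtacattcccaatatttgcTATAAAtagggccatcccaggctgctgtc
CSF2: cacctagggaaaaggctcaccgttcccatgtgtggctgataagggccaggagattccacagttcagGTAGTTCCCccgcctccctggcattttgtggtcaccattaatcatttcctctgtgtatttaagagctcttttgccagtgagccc
The windows are chr4:73740419-73740568 (plus strand) for *CXCL8*, chr4:73869243-73869392 (plus) for *CXCL1*, chr4:74099196-74099345 (minus) for *CXCL2*, chr4:74038690-74038839 (minus) for *CXCL3*, chr4:73998678-73998827 (minus) for *CXCL5*, chr2:227813692-227813841 (plus) for *CCL20* and chr5:132073639-132073788 (plus) for *CSF2*.

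The motifs were searched on both strands in the 300 bases from 250 before to 50 after each start. The κB motif was read either as GGGAANNNC or as GGAATTTCC, which can overlap. The second form was present in the 5 CXC genes and in 0.461% of all 35116 promoters of this length, and the first was present in 6 of the 7 genes and in 21.6% of all promoters. *CXCL8* matched the second form alone, and *CCL20* and *CSF2* the first form alone, with *CSF2* matching on the reverse strand. The matches began between 76 and 91 bases upstream of the start, 91 bases in *CXCL8* and 79 bases in *CXCL1* and *CXCL3*. The AP-1 motif (TGANTCA), which Fos and Jun proteins bind, was found 137 bases upstream in *CXCL8* and in none of the other 6 windows, and in 7.71% of all promoters. The letters TATAAA stood 31 bases upstream of the start in *CXCL8* and 29 bases upstream in *CCL20*, and in 11.5% of all promoters. Over the 150 bases shown, *CXCL1* was 88.8% identical to *CXCL2* and 88.1% identical to *CXCL3*, and *CXCL2* was 86.3% identical to *CXCL3*, whereas *CXCL8* was 46.2% identical to *CXCL1*. A match of letters is a description of these windows and was not tested as a binding site.

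The libraries held 16300210 to 22051046 counted reads in WT cells. In p65-deficient cells, 2 libraries (no inhibitor and CPT at 0 h) held 20524958 and 18502365 reads, and the other 4 held 8101212 to 8755001, so that all p65-deficient libraries at 1 h were shallow. *RELA* was read in all libraries, with a normalised read count (reads scaled by DESeq2 size factors) of 694 to 909 in WT and 548 to 673 in p65-deficient cells, which does not show what protein the clone makes. The 6 epithelial markers summed to 3616 to 4506 TPM (reads per exonic length, scaled to the same sum in each library), led by the keratins. Of the leukocyte markers, *CD3E* had no read and *PTPRC* at most 2 reads in a library, and the list's sum of 13.4 to 22.9 TPM came mainly from *CD68*. The fibroblast markers summed to 1.49 to 4.07 TPM, nearly all *COL1A1*, and the endothelial markers to 0.213 to 0.609 TPM.

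In unstimulated cells the 7 genes were close to silent. Summed over the genes, the WT library without inhibitor held 39 reads at 0 h, or 1.77 RPM (reads scaled to the same total in each library), and the p65-deficient library held 40 reads, or 1.95 RPM. After 1 h of TNFα the WT library held 1598 reads, or 88.96 RPM, whereas the p65-deficient library held 19 reads, or 2.35 RPM. With CPT, the stimulated WT library held 368 reads (18.6 RPM), and with ICRF193 it held 1511 reads (83.0 RPM).

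**Figure D1:**
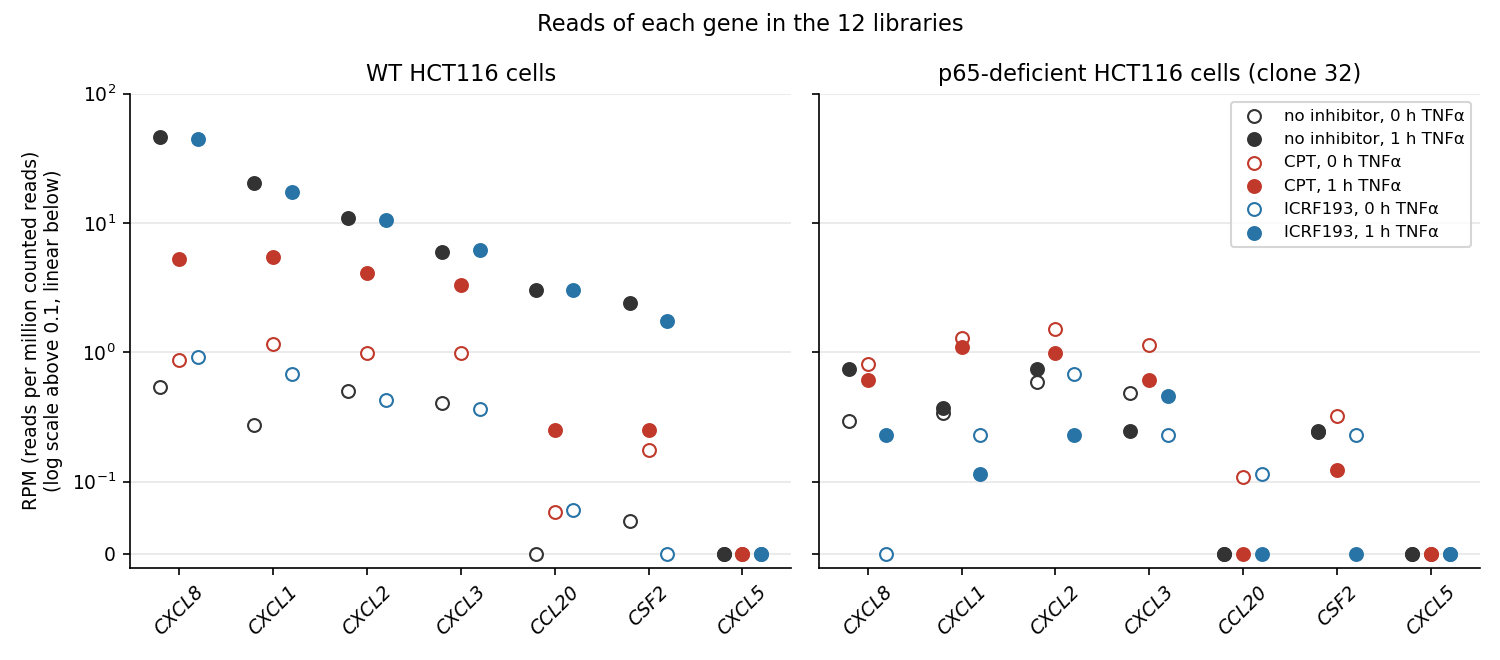
RPM of each gene (y, log scale above 0.1 and linear below, so that 0 can be drawn) in the 6 WT libraries (left) and the 6 p65-deficient libraries (right). Each point is 1 library, open at 0 h and filled at 1 h of TNFα, with no inhibitor in black, CPT in red and ICRF193 in blue. In WT cells the filled black and blue points of 6 genes lie above the red ones, while *CXCL5* is at 0 in all 12 libraries.

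*CXCL8*, the classical neutrophil attractant, was the most abundant member per exonic length in the stimulated WT library. In WT cells without inhibitor it had 12 reads at 0 h and 831 at 1 h, with CPT 15 and 104, and with ICRF193 15 and 808. In p65-deficient cells it had 6 reads at 0 h and 6 at 1 h without inhibitor, 15 and 5 with CPT, and 0 and 2 with ICRF193. As the 1 h library without inhibitor was shallower, its 6 reads are a normalised read count of 10.2, against 4.2 at 0 h. The WT libraries stimulated without CPT thus stood far above the others, and the stimulated WT library with CPT lay between them and the rest.

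*CXCL1*, *CXCL2* and *CXCL3*, which encode the 3 GRO chemokines, showed the same split of libraries. In WT cells *CXCL1* had 6 reads at 0 h and 365 at 1 h without inhibitor, 20 and 107 with CPT, and 11 and 313 with ICRF193. *CXCL2* had 11 and 197 reads without inhibitor, 17 and 81 with CPT, and 7 and 191 with ICRF193. *CXCL3*, the least abundant of them, had 9 and 108 reads without inhibitor, 17 and 66 with CPT, and 6 and 112 with ICRF193. In p65-deficient cells none of them rose in count with TNFα by more than 2 reads: *CXCL1* had 7 and 3 reads without inhibitor, 24 and 9 with CPT and 2 and 1 with ICRF193. *CXCL2* had 12 and 6, 28 and 8, and 6 and 2 reads, and *CXCL3* had 10 and 2, 21 and 5, and 2 and 4 reads, in the same order. Without inhibitor and with CPT the p65-deficient libraries were shallower at 1 h than at 0 h, so these reads do not show a fall. The normalised read counts without inhibitor were 4.9 and 5.1 for *CXCL1*, 8.4 and 10.2 for *CXCL2*, and 7.0 and 3.4 for *CXCL3*. The 3 genes are paralogs: of the words of 36 bases in their GENCODE 29 transcripts, 12.8% in *CXCL1*, 16.7% in *CXCL2* and 8.17% in *CXCL3* also occur in a transcript of another gene, against 0 in *CXCL8*, *CCL20* and *CSF2*, so their counts are less certain.

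*CCL20* and *CSF2*, each alone on its chromosome, were read less often. *CCL20* had no read at 0 h and 54 at 1 h in WT cells without inhibitor, 1 and 5 with CPT, and 1 and 55 with ICRF193. In p65-deficient cells it had no read in any of the 3 stimulated libraries, and 0, 2 and 1 reads at 0 h without inhibitor, with CPT and with ICRF193. *CSF2* had 1 and 43 reads in WT cells without inhibitor, 3 and 5 with CPT, and 0 and 32 with ICRF193. In p65-deficient cells it had 5 and 2 reads without inhibitor, 6 and 1 with CPT, and 2 and 0 with ICRF193. In both genes the stimulated WT libraries without CPT were therefore the highest, and no other library held more than 6 reads. *CXCL5* had no read in any library, although its window holds the same κB letters as *CXCL1*; a count of 0 allows up to 3 reads, or 0.136 RPM in the deepest library.

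Compared per exonic length, the stimulated WT library without inhibitor ranked the genes as *CXCL8* (47.1 TPM), *CXCL1* (29.6), *CXCL2* (15.8), *CXCL3* (9.05), *CCL20* (6.20) and *CSF2* (5.29). The library with ICRF193 gave the same order, from 45.1 TPM for *CXCL8* to 3.88 TPM for *CSF2*. With CPT the order was another one, with *CXCL1* first at 7.52 TPM, then *CXCL2* at 5.64, *CXCL8* at 5.11 and *CXCL3* at 4.79, while *CSF2* and *CCL20* stood at 0.53 and 0.50 TPM. In that library *CXCL1* had 107 reads over 1192 exonic bp and *CXCL8* had 104 over 1705, so their order rests on the correction for length. *CCL20* and *CSF2* had 5 reads each. Differences per length between genes were not tested. In the unstimulated WT library without inhibitor all 7 genes were under 0.72 TPM.

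The first comparison asked whether TNFα raised these genes where TOP1 was active. For the test, libraries without inhibitor and with ICRF193 were treated as 2 libraries without CPT, so that p-values measure the spread between these libraries and not between cultures. Of the 7 genes 6 could be tested, and all 6 rose in WT cells without CPT by edgeR's quasi-likelihood test with Benjamini-Hochberg adjustment, against 0.622% of all 15267 genes tested that were called higher. Their median log2 fold change was 5.67, beside 0.00088 over all genes tested. *CCL20* rose by a log2 fold change of 6.48 ± 0.62 (SE, adjusted p = 1.0e-06 by edgeR), *CXCL8* by 6.01 ± 0.19 (adjusted p = 1.5e-15) and *CSF2* by 5.95 ± 0.69 (adjusted p = 1.1e-05). The GRO genes followed with 5.39 ± 0.23 for *CXCL1*, 4.51 ± 0.24 for *CXCL2* and 3.95 ± 0.27 for *CXCL3*, with edgeR adjusted p-values of 4.8e-13, 1.5e-11 and 2.3e-09. *CCL20* and *CSF2* passed the low-count filter only through the stimulated WT libraries without CPT, as no other library held more than 6 reads of either. Their calls in comparisons with these libraries were thus favoured by the filter and are a description. Their fold changes rest on 1 read each in the unstimulated WT libraries without CPT. When the one without inhibitor was left out, the fold changes were 5.46 for *CCL20*, 7.97 for *CSF2* and 4.80 for *CXCL1*, beside 5.63 for *CXCL8*, and without the one with ICRF193 they were 8.55, 5.30 and 6.08, beside 6.37 for *CXCL8*, so the order of the genes was not fixed. The values of 7.97 and 8.55 are set against an unstimulated library with no read and depend on the prior count of the fit.

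The 2 inhibitor-free and ICRF193 pairs can also be read one by one. Without inhibitor, the 1 h library exceeded the 0 h library 85.6-fold for *CXCL8*, 75.2-fold for *CXCL1*, 22.1-fold for *CXCL2* and 14.8-fold for *CXCL3*. With ICRF193 these ratios were 48.9-fold, 25.9-fold, 24.8-fold and 17.0-fold. For *CXCL1* the log2 ratio was 6.23 without inhibitor (95% Clopper-Pearson interval of the reads 5.10 to 7.69, counting error only) and 4.69 with ICRF193 (3.83 to 5.71), so the intervals overlapped. With 3 reads taken for the library with none, *CCL20* was 22.3-fold higher at 1 h without inhibitor and *CSF2* 9.69-fold higher with ICRF193. On the log2 scale these are 4.48 and 3.28. The lower 95% Clopper-Pearson limits against 0 reads were smaller, at 4.13 and 2.89.

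**Figure D2:**
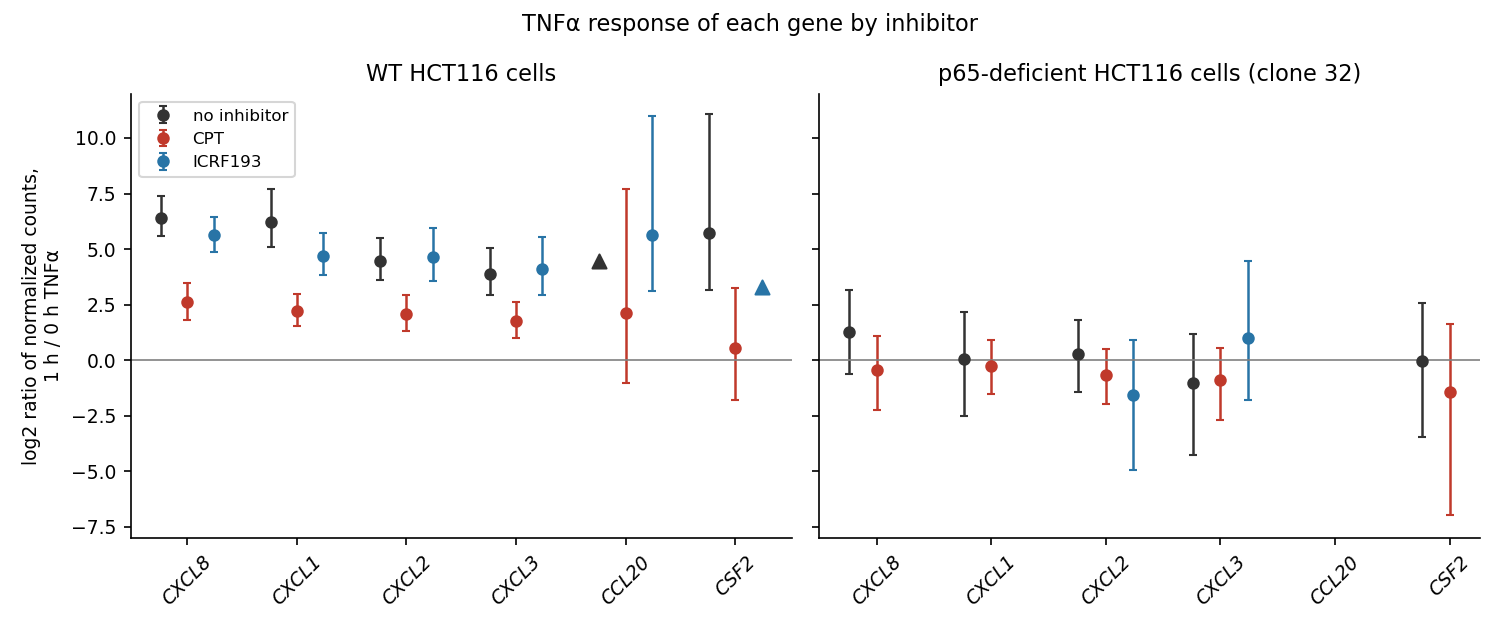
Log2 ratio of the normalised read counts at 1 h and 0 h of TNFα (y) for 6 genes in WT (left) and p65-deficient cells (right), with no inhibitor in black, CPT in red and ICRF193 in blue. Points are ratios of 2 libraries with 95% Clopper-Pearson intervals (counting error only). Triangles are ratios with 3 reads taken for a 0 h library that had none, drawn without an interval. A ratio is left out where neither library had more than 3 reads or the 1 h library had none. In WT cells the ratios with CPT of *CXCL8*, *CXCL1*, *CXCL2* and *CXCL3* run from 1.77 for *CXCL3* to 2.61 for *CXCL8*, under those of the same genes without CPT.

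CPT left part of the rise after TNFα in place. The study's methods add TNFα after 2 h of inhibitor, without saying whether unstimulated cells had the same total time with it. Time with CPT may thus differ along with TNFα in comparisons of 1 h with 0 h, and its part was not tested. With CPT, 3 of the 6 tested genes rose with TNFα in WT cells by edgeR's quasi-likelihood test with Benjamini-Hochberg adjustment, against 0.0655% of all genes. *CXCL8* rose by a log2 fold change of 2.60 ± 0.37 (SE, adjusted p = 0.0023), *CXCL1* by 2.22 ± 0.34 (adjusted p = 0.0055) and *CXCL2* by 2.06 ± 0.35 (adjusted p = 0.012, all by edgeR). *CXCL3* had a fold change of 1.76 ± 0.36 that missed the threshold (edgeR adjusted p = 0.096) but passed with no filter on low counts (0.0036) and with a term for ICRF193 (0.014), and *CCL20* and *CSF2* had too few reads (1 and 5, 3 and 5) for the change to be detectable at this depth. The lone libraries with CPT were assumed to vary like the others, and with DESeq2's Wald test *CXCL8* alone remained called.

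The TNFα response with CPT was smaller than without for *CXCL1* and *CXCL8*, the 2 of 6 tested genes whose difference passed, against 0.203% of all genes with a smaller response. The difference of the log2 fold changes was -3.41 ± 0.61 for *CXCL8* (SE, edgeR adjusted p = 0.012) and -3.17 ± 0.55 for *CXCL1* (edgeR adjusted p = 0.0094). *CXCL2* (-2.45 ± 0.53) and *CXCL3* (-2.19 ± 0.54) had the same sign with edgeR adjusted p-values of 0.055 and 0.16, and *CSF2* and *CCL20* had adjusted p-values of 0.34 and 0.62. Such a difference combines a lower level with CPT at 1 h and a higher one at 0 h. At 1 h alone the log2 fold change with CPT was -3.12 for *CXCL8*, -1.81 for *CXCL1*, -1.41 for *CXCL2* and -0.88 for *CXCL3*. Without the unstimulated WT library that received no inhibitor, neither *CXCL8* (adjusted p = 0.067) nor *CXCL1* (0.076) passed in edgeR, with differences of -3.04 and -2.58. With no filter on low counts, or with a term for ICRF193, 4 genes passed.

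Measured at 1 h of TNFα alone, all 6 tested genes were lower with CPT than in the 2 WT libraries without it (edgeR's quasi-likelihood test, Benjamini-Hochberg), where 19.9% of all genes were lower. The median log2 fold change was -2.41, beside 0.031 over all genes. *CCL20* fell by 3.55 ± 0.53 on the log2 scale (SE, edgeR adjusted p = 2.2e-05), *CXCL8* fell by 3.12 ± 0.17 (5.1e-12) and *CSF2* fell by 3.02 ± 0.57 (2.8e-04). The GRO genes changed less, *CXCL1* by -1.81 ± 0.18 (edgeR adjusted p = 9.7e-08), *CXCL2* by -1.41 ± 0.19 (6.2e-06) and *CXCL3* by -0.88 ± 0.22 (0.0031). With DESeq2's Wald test *CXCL3* and *CSF2* no longer passed (adjusted p = 0.38 and 0.084). *CCL20* and *CSF2* passed the low-count filter only through the stimulated WT libraries without CPT, so their lower level with CPT is a description.

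The share of the uninhibited level that remained differed from gene to gene. Set against the stimulated WT library without inhibitor, the normalised read count with CPT was 8.32% for *CCL20* (95% Clopper-Pearson interval 2.60 to 20.6), 10.5% for *CSF2* (3.23 to 26.3) and 11.2% for *CXCL8* (9.08 to 13.8). It was 26.3% for *CXCL1* (21.0 to 32.8), 37.0% for *CXCL2* (28.2 to 48.1) and 54.9% for *CXCL3* (39.8 to 75.3). In this order, *CXCL8* and *CXCL1* were separated by more than counting error, whereas *CCL20*, *CSF2* and *CXCL8* had overlapping intervals, as had *CXCL1* and *CXCL2*, and *CXCL2* and *CXCL3*. These are ratios of 1 library to 1 and their differences were not tested over replicates.

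**Figure D3:**
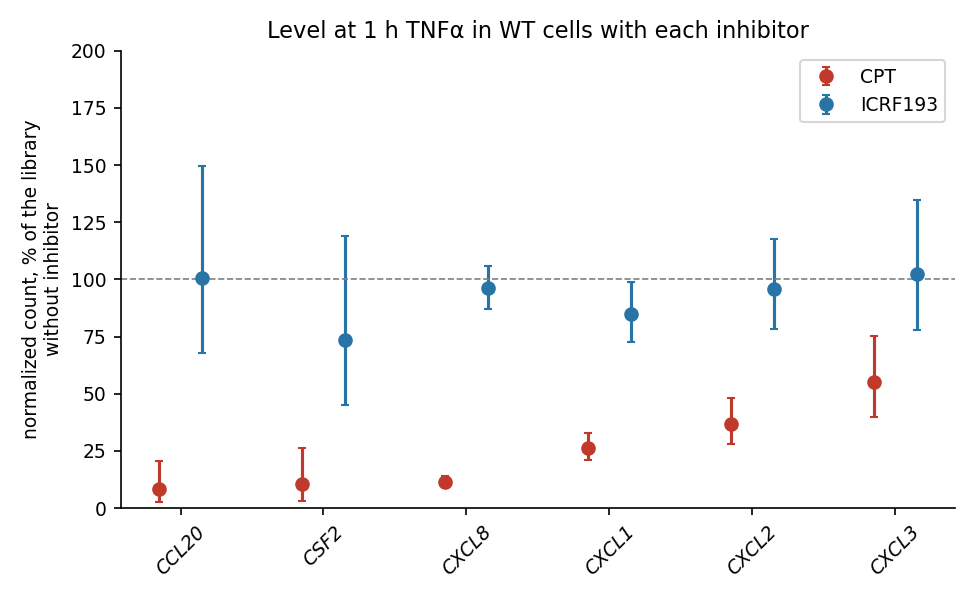
Normalised read count at 1 h of TNFα in WT cells with CPT (red) or ICRF193 (blue), in percent of the library without inhibitor (y), for 6 genes. Points are ratios of 2 libraries, bars are 95% Clopper-Pearson intervals (counting error only), and the dashed line is 100%. The CPT values run from 8.32% for *CCL20* to 54.9% for *CXCL3*, and the ICRF193 values from 73.6% to 103%.

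The mixture of transcripts changed as well, which can be read within a library and needs no normalisation. *CXCL8* made up 52.0% of the reads of the 7 genes in the stimulated WT library without inhibitor (49.5 to 54.5), 53.5% with ICRF193 (50.9 to 56.0) and 28.3% with CPT (23.7 to 33.2). *CXCL3* made up 6.76% without inhibitor (5.58 to 8.10), 7.41% with ICRF193 (6.14 to 8.85) and 17.9% with CPT (14.2 to 22.2). *CXCL2* rose in share from 12.3% (10.8 to 14.0) to 22.0% (17.9 to 26.6) with CPT, and *CXCL1* stood at 22.8% (20.8 to 25.0) and 29.1% (24.5 to 34.0). Hence the intervals of *CXCL8*, *CXCL2* and *CXCL3* with CPT did not overlap those of the other libraries, and those of *CXCL1* overlapped that without inhibitor.

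**Figure D4:**
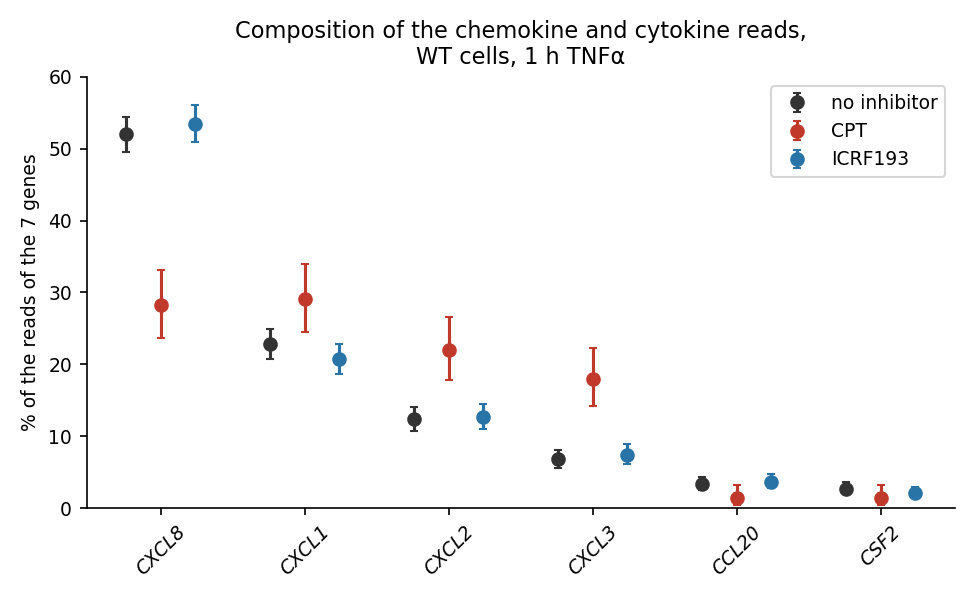
Share of each gene in the summed reads of the 7 genes (y, percent) in the 3 stimulated WT libraries, with no inhibitor in black (1598 reads), CPT in red (368) and ICRF193 in blue (1511). Bars are 95% Clopper-Pearson intervals (counting error only). The share of *CXCL8* is 52.0% and 53.5% without CPT and 28.3% with it.

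Inhibition of TOP2 with ICRF193 left the genes near their levels. Over the 4 pairs of libraries that differ in ICRF193 alone, none of the 6 tested genes was called by edgeR's quasi-likelihood test and none had an unadjusted p under 0.05, where 2.16% of all 14101 genes tested were called in either direction. The log2 fold changes ran from -0.51 ± 0.36 (SE) for *CSF2* to 0.09 ± 0.32 for *CCL20*, with -0.06 ± 0.10 for *CXCL8*. DESeq2 called none either, but gave an adjusted p for *CXCL8* alone. In stimulated WT cells the level with ICRF193 was 96.1% of that without inhibitor for *CXCL8* (87.2 to 106), 95.9% for *CXCL2* (78.1 to 118), 103% for *CXCL3* (78.0 to 135) and 101% for *CCL20* (67.9 to 149). *CXCL1* stood at 84.8% (72.7 to 98.9) and *CSF2* at 73.6% (45.1 to 119). The paired test averages over both cell lines and both times.

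Before TNFα was added, CPT had the opposite sign. At 0 h, the mean effect of CPT over both cell lines was positive in all 6 tested genes, and 4 rose by edgeR's quasi-likelihood test with Benjamini-Hochberg adjustment, against 24.7% of all genes that were called higher; this comparison was added after the counts had been seen. *CXCL1* rose by a log2 fold change of 1.70 ± 0.37 (SE, edgeR adjusted p = 6.5e-04), *CXCL3* by 1.38 ± 0.34 (0.0022), *CXCL2* by 1.17 ± 0.32 (0.0041) and *CXCL8* by 1.12 ± 0.43 (0.037). Without the unstimulated WT library that had no inhibitor, or without the p65-deficient one with ICRF193, *CXCL8* did not pass (edgeR adjusted p = 0.096 and 0.084), and without the p65-deficient one that had no inhibitor its fold change was 3.44, set in part against a library with no read. Levels remained low, since the unstimulated CPT libraries held 73 reads of the 7 genes in WT and 96 in p65-deficient cells, against 39 and 40 without inhibitor. In single pairs *CXCL1* was higher with CPT 4.22-fold in WT (95% Clopper-Pearson interval of the log2 ratio 0.71 to 3.68) and 3.81-fold in p65-deficient cells (0.67 to 3.39).

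In p65-deficient cells no response to TNFα was detected. None of the 6 tested genes passed in edgeR's quasi-likelihood test, none had an unadjusted p under 0.05 and DESeq2 called none, with 0.0655% of all genes called higher. The fold changes that rest on more than 3 reads in sum at each time were -0.40 ± 0.86 (SE) for *CXCL1*, -0.40 ± 0.56 for *CXCL2*, -0.23 ± 0.66 for *CXCL3* and 1.15 ± 0.81 for *CXCL8* on the log2 scale. The shallow stimulated libraries held at most 10.2 normalised reads of any member without CPT, and in the pairs without inhibitor the counting intervals of *CXCL8*, *CXCL1*, *CXCL2* and *CXCL3* lay apart from those of WT cells. There the log2 ratio of *CXCL8* was 1.28 with an upper bound of 3.18, under the lower bound of 5.61 in WT cells. The same bounds without inhibitor were 2.19 against 5.10 for *CXCL1*, 1.80 against 3.60 for *CXCL2* and 1.18 against 2.91 for *CXCL3*. With ICRF193, *CXCL3* had an interval of -1.80 to 4.47 that overlapped the 2.92 to 5.56 of WT cells.

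The difference between the cell lines in the TNFα effect passed for 4 of the 6 tested genes (edgeR's quasi-likelihood test, Benjamini-Hochberg), against 0.255% of all genes with a larger rise in WT cells. The difference of log2 fold changes was 4.91 ± 0.64 for *CXCL2* (SE, edgeR adjusted p = 1.4e-04), 5.79 ± 0.96 for *CXCL1* (0.0033) and 4.18 ± 0.74 for *CXCL3* (0.0073). For *CSF2* it was 6.94 ± 1.46 (edgeR adjusted p = 0.037), for *CXCL8* 4.86 ± 1.06 with an adjusted p of 0.05005 that lies just over the threshold of 0.05, and for *CCL20* the adjusted p was 0.61 with no read in the stimulated clone. Leaving out the unstimulated p65-deficient library without inhibitor left *CXCL2* as the 1 gene called, with a difference of 3.32 for *CXCL3*, and leaving out the stimulated one left 2. *CSF2* lost its call when any of 7 of the 8 libraries without CPT was left out, all but the stimulated WT library with ICRF193. *CXCL8* passed with no filter on low counts (edgeR adjusted p = 3.2e-04) and by DESeq2 (6.4e-05), whereas in that DESeq2 fit *CXCL3* (adjusted p = 0.051) and *CSF2* (0.38) did not pass, so that 3 genes were called. Without the unstimulated p65-deficient library that had no inhibitor, the difference of *CXCL8* fell from 4.86 to 0.19. That value is set against a library with no read and depends on the prior count. Without the stimulated p65-deficient library that had no inhibitor the differences rose to 6.79 for *CXCL1*, 5.94 for *CXCL2* and 10.94 for *CSF2*, and without the stimulated one with ICRF193 they were 5.17, 4.28 and 5.95. The 10.94 of *CSF2* is set against a library with no read and depends on the prior count. Depth differs along with cell line and time here, and its part in the result was not tested; of the p65-deficient pairs the one with ICRF193 had like depth at both times, with 13 and 9 reads of the 7 genes.

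The neighbours of the genes were counted beside them, where 0.622% of all genes were called higher with TNFα in WT cells without CPT. Within 0.5 Mb of the CXC cluster, 15 other genes were counted, 6 of them with no read, and 1 of the 6 tested rose with TNFα in WT cells without CPT: *EREG*, the growth factor epiregulin, by a log2 fold change of 0.39 ± 0.05 (SE, edgeR adjusted p = 4.7e-05). *CXCL6*, another neutrophil chemokine, lies between *CXCL8* and *CXCL1* and had 2 reads over all 12 libraries, and *PPBP* and *PF4* had none. None of the 4 tested genes near *CCL20* was called. Near *CSF2*, 1 of 11 tested genes rose, *IRF1*, a transcription factor of the interferon response, by 1.95 ± 0.07 (edgeR adjusted p = 1.4e-14), and its TNFα response with CPT was smaller by a log2 difference of -1.28 ± 0.13 (edgeR adjusted p = 7.3e-06).

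**Figure D5:**
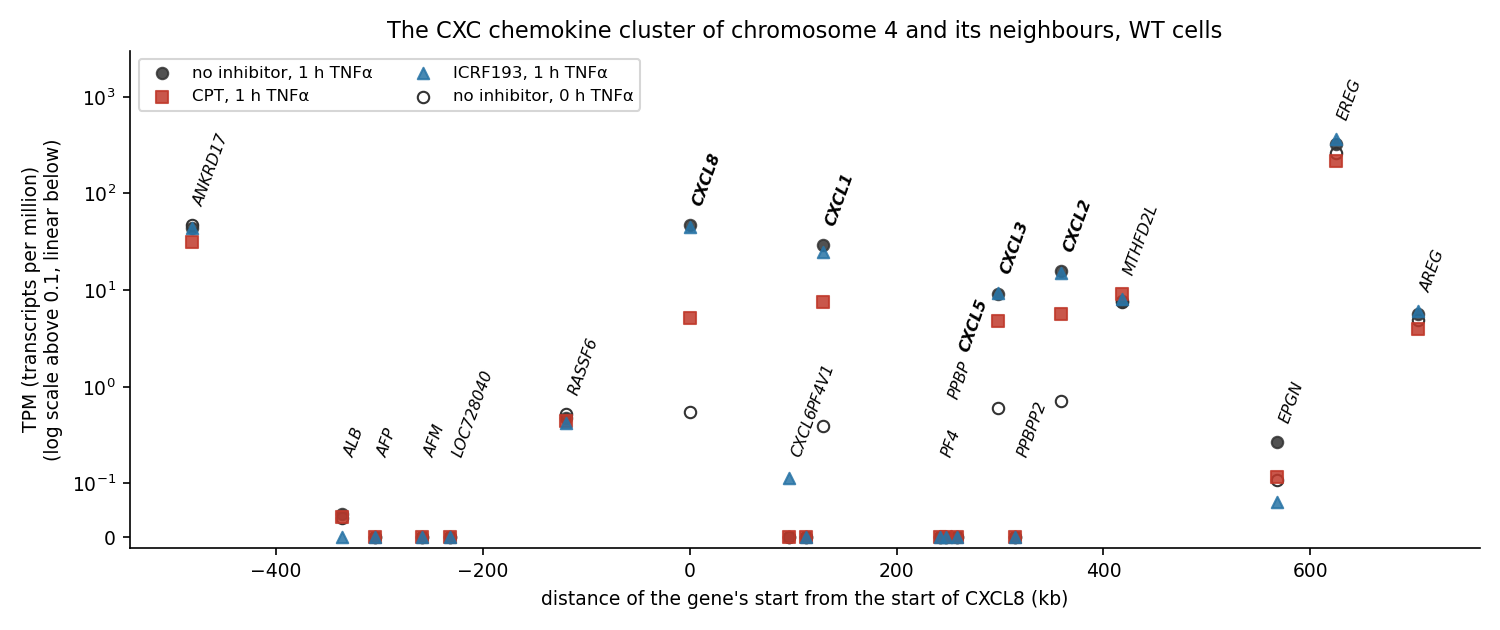
Level per exonic length (y, TPM, log scale above 0.1 and linear below) of the genes within 0.5 Mb of the CXC cluster in WT cells, at the distance of each gene's start from that of *CXCL8* (x, kb). Filled symbols are the 1 h TNFα libraries with no inhibitor (black circles), CPT (red squares) and ICRF193 (blue triangles), open circles the 0 h library without inhibitor, and bold names the genes described here. *CXCL8*, *CXCL1*, *CXCL3* and *CXCL2* stand apart from their own open circles, and *CXCL5* is at 0.

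Of 43 other chemokines counted, 20 had no read and 2 could be tested, *CXCL16* and *CCL26*, of which neither was called with TNFα. Of 15 tested cytokines, 3 rose with TNFα in WT cells without CPT: *EDN1* (endothelin 1) by a log2 fold change of 1.55 ± 0.36 (SE, edgeR adjusted p = 0.0498), *CSF1*, the macrophage growth factor, by 1.08 ± 0.15 (2.1e-04) and *LIF* by 0.40 ± 0.06 (2.5e-04). The median over the 15 was 0.24. With CPT none of the 15 was called with TNFα by edgeR. Of the receptors for these proteins, *CXCR1* and *CXCR2* had at most 4 reads in a library, *CCR6* at most 17, *CSF2RB* at most 1 and *CSF2RA* none. *TNFRSF1A*, the gene of TNFR1, had 430 to 1838 reads, and none of the 6 tested receptors was called with TNFα.

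The NF-κB pathway itself responded in WT cells. Without CPT, 0.622% of all genes were called higher with TNFα. Of the 5 subunit genes, 3 rose with TNFα without CPT (edgeR's quasi-likelihood test): *NFKB2* by a log2 fold change of 1.26, *RELB* by 1.01 and *REL* by 0.58, with a list median of 0.58. Of the 11 inhibitors and feedback regulators, 6 rose: *BIRC3* (4.22), *TNFAIP3*, which encodes A20 (3.35), *NFKBIA*, which encodes IκBα (3.19), *NFKBIZ* (2.82), *BCL3* (1.24) and *NFKBIE* (0.89), which was also the list's median. With CPT, 2 of these 11 rose, *TNFAIP3* by 1.78 and *NFKBIA* by 0.90, against 0.0655% of all genes. The response was smaller with CPT for 4 (0.203% of all genes) and larger in WT than in p65-deficient cells for 6 (0.255%). *NFKBIZ*, 1 of the 4, was already higher with CPT at 0 h in WT cells, with 422 reads against 128 without inhibitor. At 1 h it had 695 reads with CPT and 770 without inhibitor. Of 10 regulators of mRNA decay, 3 rose with TNFα, *ZFP36* (tristetraprolin, which binds AU-rich elements in cytokine mRNAs) by 1.30, *ZC3H12A* (Regnase-1) by 1.17 and *ZFP36L1* by 0.33, with a list median of 0.043.

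Over the 12 libraries, the 10 genes whose log2 CPM (reads scaled to library size) ran most like the mean of the members were *NFKBIA* (Pearson's r = 0.948), *NFKB2* (0.933), *IFNGR2* (0.897), *TNFAIP2* (0.878), *BIRC3* (0.855), *TNFAIP3* (0.851), *WNT10A* (0.850), *UPP1* (0.845), *IRF1* (0.841) and *U2AF1* (0.841), among 13817 genes ranked. The 12 points share their libraries and depth, and the stimulated WT libraries stand apart from the rest, so these values are a description. *NFKBIA* had 1385 and 10789 reads at 0 h and 1 h in WT cells without inhibitor, 1285 and 2738 with CPT and 1084 and 10252 with ICRF193, so that in stimulated cells the library with CPT lay between those without it and the unstimulated ones, as for *CXCL8*.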

How the data were processed

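RNA-seq (TruSeq Stranded total RNA) was analysed in 12 libraries, 1 per condition. The deposited values are raw read counts per gene symbol that the authors made with featureCounts 1.5.0 (default options, hg19 UCSC genes) after trimming and STAR alignment; multi-mapped reads and strand were not used. From these counts, edgeR 4.0.16 quasi-likelihood fits (TMM, filterByExpr, Benjamini-Hochberg over all genes tested, threshold 0.05) compared groups in R 4.3.3, with 1 fit of the 12 libraries over 8 combinations of cell line, TNFα and CPT (4 residual degrees of freedom), and ICRF193 in 4 pairs with the pair as a block. The SE given with an edgeR fold change is its absolute value divided by the square root of the F statistic. Fits were tested on simulated data. Ratios of 2 libraries used DESeq2 1.42.0 size factors with 95% Clopper-Pearson intervals of the reads, which like the floor of 3 reads cover counting error only. TPM was computed here. Alternatives were other normalisations, filters, DESeq2's Wald test, an ICRF193 term and left-out libraries. The members and gene lists were chosen with earlier results of these data known. Genes named were the 7 members, the 10 genes with the highest correlation to them (at least 20 reads in a library), and at most 5 called genes of a list by fold change, with all called genes named where the list was short. Promoters were RefSeq's (GRCh38.p14), found for all 7 members, and aligned pairwise with Biopython.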

Additional observations from a re-analysis of the deposited data

Results flagged for a closer look

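The TNFα effect differed between WT and p65-deficient cells by a test of the difference itself for 4 genes. The log2 fold change without CPT was larger in WT cells by 5.79 for *CXCL1*, 4.91 for *CXCL2*, 4.18 for *CXCL3* and 6.94 for *CSF2*. With DESeq2's Wald test *CXCL3* and *CSF2* did not pass (adjusted p = 0.051 and 0.38), and *CXCL8* did. The edgeR difference of *CXCL8* was 0.19 when the unstimulated p65-deficient library without inhibitor was left out. *CSF2* passed the low-count filter only through the stimulated WT libraries without CPT. The p65-deficient cells are 1 clone, so that other properties of the clone and the loss of p65 cannot be told apart.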

How the results depend on the processing

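Each condition was 1 library, so spread was taken from libraries that differ in ICRF193, and changes of genes under about 3 reads were not detectable. With DESeq2 size factors, total counts or a filter of 20 reads, no count of members called changed. Without the low-count filter, 4 members passed for the smaller TNFα response with CPT, and the genes called were 170 for TNFα in WT cells without CPT (108 in the fit reported), 21 with CPT (11), 77 for TNFα by CPT (36), 86 for TNFα in p65-deficient cells (11) and 106 for TNFα by cell line (49). With an additive ICRF193 term these were 4 members, and 211, 22, 130, 84 and 117 genes. With DESeq2's Wald test, 1 member passed for TNFα with CPT, and 60, 5 and 21 genes were called for TNFα without CPT, TNFα with CPT and TNFα by CPT, 2756 for CPT at 1 h (5735), 30 for TNFα by cell line, 4887 for CPT at 0 h (7775) and 83 for ICRF193 (304). Without the pair block, 3 genes were called for ICRF193. Leaving out 1 library or pair in turn gave 0 to 2 members for TNFα by CPT, 1 to 5 for TNFα by cell line and 3 to 4 for CPT at 0 h, with 6, 3, 6, 0 and 0 members in every case for TNFα in WT cells without CPT, with CPT, CPT at 1 h, TNFα in p65-deficient cells and ICRF193. The genes called then ranged over 72 to 116 for TNFα in WT cells without CPT, 10 to 12 with CPT, 22 to 48 for TNFα by CPT, 4382 to 6115 for CPT at 1 h, 4 to 178 in p65-deficient cells, 27 to 120 by cell line, 7116 to 7637 for CPT at 0 h and 166 to 323 for ICRF193. No called fold change of a member changed sign. Beyond the filters and tools named, the cause was not tested.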

Other observations

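At 0 h of TNFα, 5 of 15 tested other cytokine genes rose with CPT over both cell lines and 4 fell by edgeR's quasi-likelihood test with Benjamini-Hochberg adjustment, where 3774 of all 15267 genes tested rose and 4001 fell, so these shares are near those of all genes. *CSF3*, which encodes the granulocyte growth factor G-CSF, rose by a log2 fold change of 3.88 ± 0.83 (SE by edgeR). It went from 0 to 9 reads with CPT in WT and from 0 to 11 in p65-deficient cells. *CSF3* passed the low-count filter only through the unstimulated p65-deficient library with CPT. Its call here was thus favoured by the filter and is a description. *LTA* (lymphotoxin alpha) rose by 3.11 ± 0.87 (SE by edgeR), from 1 to 4 reads in WT and from 2 to 15 in p65-deficient cells. It passed the low-count filter only through p65-deficient libraries with CPT, so its rise is a description as well. *IL11* rose by 1.26 ± 0.39 (edgeR adjusted p = 0.011) and *EDN1* by 1.12 ± 0.42 (0.031), and *CLCF1* fell by 1.11 ± 0.12 on the log2 scale (2.1e-07). Of the 6 tested receptor genes 1 rose and 3 fell, with a list median of -0.39. The chemokine receptor *CXCR4* rose by 2.54 ± 0.45 (SE by edgeR), from 7 to 22 reads in WT and from 6 to 25 in p65-deficient cells. *CXCR4* passed the low-count filter only through libraries with CPT, so its rise is a description. *TNFRSF1A* changed by -0.46 ± 0.05 (edgeR adjusted p = 2.0e-07), *IFNGR1* by -0.42 ± 0.07 (4.5e-05) and *IL1R1* by -0.36 ± 0.11 (0.0097).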
